A study of Mus musculus with 20 samples.

Results

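Rab GTPases and vesicle traffic genes were followed through mouse preimplantation development, from the oocyte to the blastocyst. The set holds the genes of the Rab, Vps (vacuolar protein sorting), Snx (sorting nexin), Exoc (exocyst), Stx (syntaxin), Arl (Arf-like), Tbc1d (TBC domain), Trappc (TRAPP complex) and Cog (conserved oligomeric Golgi complex) names, each followed by a number. Members were chosen by symbol, with earlier results of these data known. A probe set had to carry exactly 1 gene symbol of that form, and the brightest probe set stood for each gene. This gave 134 genes of the 9607 named genes of the array, of which 111 passed a filter on low intensity (an intensity of 82.6 or more, the median of the table, on 4 or more arrays). The rule also looked for Vamp genes and found none. It took in 3 RNAs from the opposite strand of a member, Rab10os, Rab11fip4os1 and Tbc1d22bos, and Exoc3l2, which is named for its likeness to an exocyst subunit.

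The data are 20 Affymetrix MOE430B arrays, a 1-colour mouse oligonucleotide array, with 4 arrays each of oocytes, 1-cell embryos, 2-cell embryos, 8-cell embryos and blastocysts. Total RNA of each sample went through 2 rounds of in vitro transcription, a linear amplification that starts at the 3′ end of the message. Mouse strain, age, genotype, treatment, culture, and the number of oocytes or embryos behind each array are not stated in the labels. Nothing in the labels says that the arrays of a stage came from separate collections, so the p-values measure the spread between arrays, which may be technical. All groups share the amplification. With 4 arrays a stage, precision is limited.

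Rab proteins are small GTPases that mark membrane compartments. In the GTP-bound form they recruit effectors that move, tether and fuse vesicles. Exchange factors switch them on, and GTPase-activating proteins, many of them with a TBC domain, switch them off. Tethering complexes such as the exocyst, TRAPP and COG hold an arriving vesicle near its target, SNARE proteins such as syntaxins drive fusion, and sorting nexins, retromer and ESCRT proteins sort cargo at endosomes. The oocyte enters development with stored messages, which are cleared while the embryo's own transcription starts. Vesicle traffic in these cells serves the release of cortical granules, the uptake and recycling of membrane proteins, cell division and, later, the polarised outer epithelium of the blastocyst.

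The promoters of 4 members are shown, Exoc3l2, Tbc1d12, Tbc1d9 and Rab11fip5, because each had a large rise at the 2-cell or the 8-cell stage and because they stand for 3 families. Each sequence is the 250 bases before the annotated start in RefSeq, build GRCm38.p6, read 5′ to 3′ on the gene's strand. Capitals mark matches to the CCAAT box (CCAAT or ATTGG) and to the GC box (GGGCGG or CCGCCC). The windows are chr7:19463037-19463286 on the plus strand, chr19:38836329-38836578 on the plus strand, chr8:83165102-83165351 on the plus strand and chr6:85374635-85374884 on the minus strand.
Exoc3l2: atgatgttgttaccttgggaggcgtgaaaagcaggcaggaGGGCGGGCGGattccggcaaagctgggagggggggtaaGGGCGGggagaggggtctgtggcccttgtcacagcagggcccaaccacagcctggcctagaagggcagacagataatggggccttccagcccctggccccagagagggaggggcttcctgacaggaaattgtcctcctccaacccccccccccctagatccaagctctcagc
Tbc1d12: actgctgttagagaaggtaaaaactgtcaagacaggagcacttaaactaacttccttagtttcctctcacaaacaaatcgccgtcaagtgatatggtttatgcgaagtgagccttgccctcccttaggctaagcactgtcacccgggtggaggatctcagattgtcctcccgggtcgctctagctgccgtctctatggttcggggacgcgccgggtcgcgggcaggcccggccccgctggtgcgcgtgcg
Tbc1d9: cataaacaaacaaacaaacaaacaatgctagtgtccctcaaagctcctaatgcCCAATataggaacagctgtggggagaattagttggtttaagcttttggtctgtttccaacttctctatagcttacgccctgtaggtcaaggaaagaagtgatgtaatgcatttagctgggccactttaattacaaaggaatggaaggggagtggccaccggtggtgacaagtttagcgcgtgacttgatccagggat
Rab11fip5: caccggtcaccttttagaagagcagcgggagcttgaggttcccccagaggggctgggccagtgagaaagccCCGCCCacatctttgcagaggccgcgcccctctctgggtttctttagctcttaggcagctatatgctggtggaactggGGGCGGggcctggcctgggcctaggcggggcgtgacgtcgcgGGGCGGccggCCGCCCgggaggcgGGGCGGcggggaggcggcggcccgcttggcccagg
The Exoc3l2 window holds 3 GC boxes, 2 of them overlapping, and the Rab11fip5 window holds 5. Tbc1d9 has 1 CCAAT box, and Tbc1d12 has no match to any motif searched. The GC content is 63.6% for Exoc3l2, 56.8% for Tbc1d12, 44% for Tbc1d9 and 71.2% for Rab11fip5.

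Over all members past the filter, 87 genes matched the promoter table, with 113 windows. A GC box stood in 60.2% of the members' windows and in 32.7% of all 32851 windows of the same length. The CCAAT box stood in 30.1% against 33.8%, the palindrome CACGTG in 9.73% against 6.02%, and TATAAA or TTTATA in 11.5% against 12.4%. Both strands were searched. The median GC content was 60.0% for the members and 52.4% for all windows, so the GC box share and the GC content were both higher for the members. The 32851 windows also cover genes that are absent from the array or below the filter. Named genes past the filter were not compared separately. A match describes the letters only.

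The stage labels were set against marker lists. Oocyte markers had a mean of 13.13 in oocytes and 7.57 in blastocysts on the log2(value + 20) scale, with 7 of 13 listed genes on the array. Epcam, listed for trophectoderm and epithelium, had a mean intensity of 301.6 in oocytes and 2764 in blastocysts and was the only 1 of 10 on the array. For the inner cell mass 2 of 6 were, and they moved apart in the last step. Esrrb had means of 299.1 in oocytes, 657.3 in 8-cell embryos and 389.8 in blastocysts. L1td1 had means of 19.02, 409.9 and 6305 at these stages. Of 14 cumulus and granulosa markers, 4 were on the array, and they did not move alike. Amhr2 had a mean of 2053 in 2-cell embryos and between 167.0 and 768.3 at the other stages, Foxl2 had means between 579.1 and 760.0, and Inhba and Ptx3 had means of 119.9 or less. The 18S ribosomal RNA control stood at a mean of 37010 in 1-cell embryos and between 650.2 and 3282 at the other stages. The 3′ over 5′ signal of beta-actin averaged 1.09 log2 units in blastocysts and 1.86 to 2.41 at the other stages, and that of Gapdh 1.04 in 8-cell embryos and 2.05 to 2.38 elsewhere. These quantities move with stage, and their part in the results below was not tested.

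Most of the members past the filter changed somewhere among the stages. Of the 111 members past the filter, 78 (70.3%) passed the moderated F test over the 4 consecutive comparisons, beside 59.5% of all 7475 named genes past the same filter. Thresholds throughout are a Benjamini-Hochberg adjusted p under 0.05 in limma, taken over all 15234 tested probe sets. A log2 change is a difference of stage means of log2(value + 20), and a fold is a ratio of mean intensities. Adjacent comparisons share the arrays of a stage. Shares of all named genes were counted with these settings only. Counts of members under other settings or without an array have no such share beside them. Levels are compared between stages for 1 probe set, never between genes, and in such samples less RNA per cell and fewer cells that carry it cannot be told apart.

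The first passage, from oocyte to 1-cell embryo, brought more called falls than rises of traffic genes. Higher in 1-cell embryos were 4 members (3.6%), beside 3.46% of all named genes: Rab6a, Rab27a, Rab35 and Tbc1d22b. With a filter on the 75th percentile the members' rises numbered 7, and the share of all named genes was not counted there. Lower were 12 (10.8%), beside 6.27%: the exocyst subunits Exoc3 and Exoc6, the Rab11 effectors Rab11fip1 and Rab11fip5, the TRAPP subunits Trappc4, Trappc8 and Trappc11, and Rab38, Snx6, Tbc1d25, Vps13a and Vps13d. The members' median log2 change was −0.02 and that of all named genes 0.00. The 12 falls ran from −0.60 for Vps13a to −2.38 for Exoc3.

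At the 2-cell stage 19 members (17.1%) were higher than in 1-cell embryos, beside 13.4% of all named genes, and 10 (9.01%) were lower, beside 13%. The rises were led by Exoc3l2, Tbc1d12, Rab11fip1, Rab39, Rab11fip5 and Rab11fip3, with log2 changes from 1.67 to 4.26. They also took in Rab5b, Rab11b and Rab43, Arl14 and Arl15, Tbc1d9, Tbc1d16 and Tbc1d23, and Snx6, Trappc6b, Trappc13, Vps13d and Rab3ip. The falls were Rab3gap1, Rab23, Cog3, Vps26c, Rab3gap2, Rab27a, Snx10, Tbc1d22b, Snx13 and Rab6a. With array weights the members' falls numbered 16, and the share of all named genes was not counted there. The median was −0.03 for members and 0.02 for all named genes.

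From the 2-cell to the 8-cell stage 25 members (22.5%) were higher, beside 15% of all named genes, and 18 (16.2%) were lower, beside 17.7%, with medians of 0.08 for members and 0.05 for all named genes. Among the rises were 8 of 14 sorting nexins and 4 of 5 exocyst subunits, and among the falls 7 of 23 Rab GTPases. The largest rises with no overlap between the arrays were Exoc6, Tbc1d9, Snx16, Trappc11, Snx24 and Exoc3, and the largest such falls were Exoc3l2, Trappc6b, Vps13a, Rab14, Rab23 and Rab3gap1.

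In blastocysts 22 members (19.8%) were higher than at the 8-cell stage, beside 11.1%, and 14 (12.6%) were lower, beside 7.77%. The median was 0.14 for members and −0.045 for all named genes. Snx7, Snx25, Stx3, Stx16, Vps26c and Rab11fip4 led the rises. Tbc1d9, Snx16, Tbc1d12, Rab39, Rab11fip1 and Rab1a led the falls whose arrays did not overlap. Without 8-cell replicate 2 the count of falls was 8 and without blastocyst replicate 2 it was 9.

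**Figure D1:**
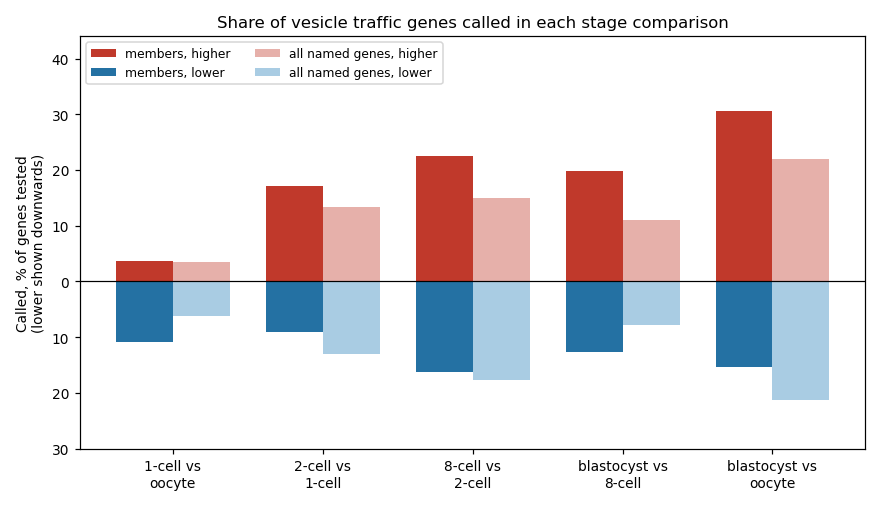
Bars give the percentage of genes called higher (upwards) or lower (downwards) in each stage comparison, for the 111 members past the filter (dark) and all 7475 named genes past it (pale). The members' share of rises stood above that of all named genes in each comparison, by the least at the 1-cell stage (3.6% and 3.46%), and their share of falls was below it at the 2-cell and 8-cell stages and from oocyte to blastocyst.

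Changed members were grouped by the stage of their highest mean. Of the 78 changed members, 26 (33.3%) had their highest mean in blastocysts, 18 (23.1%) in 1-cell embryos, 18 in 8-cell embryos, and 8 (10.3%) each in oocytes and 2-cell embryos. Over all changed named genes the shares were 24.5% in blastocysts, 21.7% in 1-cell embryos, 22.7% in 8-cell embryos, 17.7% in oocytes and 13.3% in 2-cell embryos. Among the 16 changed Rab GTPases, 8 were highest in 1-cell embryos and 1 in blastocysts. By contrast 5 of 11 changed sorting nexins and 5 of 9 changed Vps genes were highest in blastocysts. A test of these differences between families was not made.

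**Figure D2:**
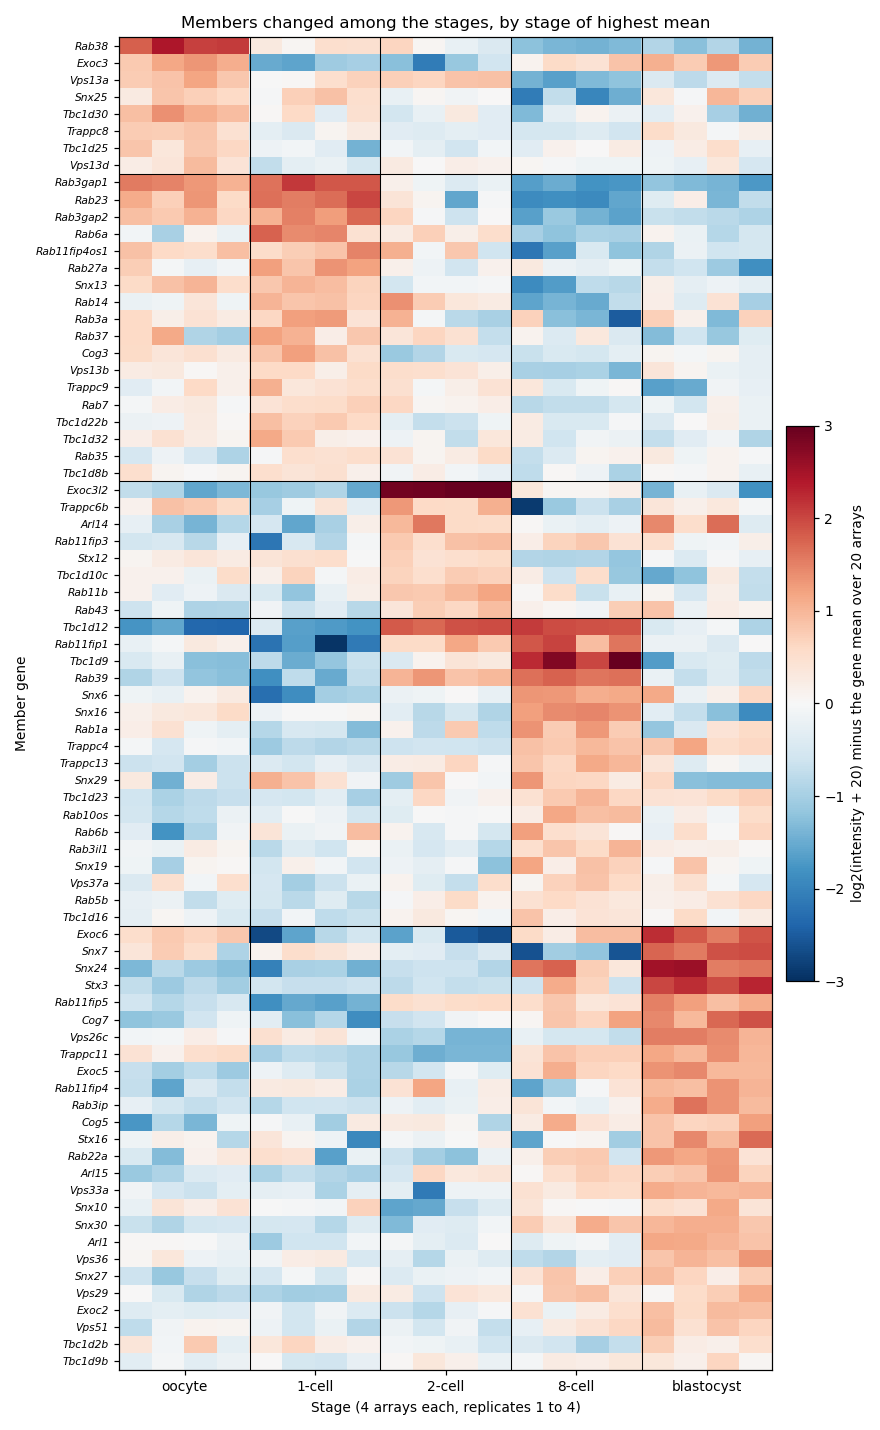
Each row is 1 of the 78 changed members and each column 1 of the 20 arrays, and colour gives log2(intensity + 20) minus the gene's mean over all arrays, limited to 3 units either way. Rows are grouped by the stage of the highest mean, with 26 rows in the blastocyst block and 8 each in the oocyte and 2-cell blocks.

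Among the Rab GTPases, 23 of 29 passed the filter. At the 1-cell stage 3 rose (13%, beside 3.46% of all named genes) and 1 fell (4.35%, beside 6.27%). At the 2-cell stage 4 rose (17.4%, beside 13.4%) and 3 fell (13%, beside 13%). In 8-cell embryos 1 rose (4.35%, beside 15%) and 7 fell (30.4%, beside 17.7%), and in blastocysts 3 rose and 3 fell (13% each, beside 11.1% and 7.77%). At the 8-cell stage the Rab median log2 change was −0.40, beside 0.05 over all named genes.

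Rab38, which serves the biogenesis of melanosomes and related organelles, fell furthest from its oocyte level. Its intensities were 8745, 13448, 10467 and 10690 in oocytes, 3074.5, 2607, 3524 and 3472 in 1-cell embryos, 3914.5, 2599, 2129 and 1839.8 in 2-cell embryos, 1045, 959, 927 and 992 in 8-cell embryos and 1346, 1029.6, 1348 and 926 in blastocysts. Every oocyte array lay above every later array. The fall was 3.42-fold by the 1-cell stage (log2 change −1.76, SE 0.20, adjusted p = 1.39e-06) and 9.32-fold from oocyte to blastocyst (log2 change −3.20, SE 0.20, adjusted p = 2.72e-12). The Rab38 probe set is of the x_at type, whose probes may also match other transcripts, and so are those of Rab6a, Rab27b, Rab11fip4 and Cog8.

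A second course was a rise in the 1-cell embryo followed by a loss. Rab6a, which acts in retrograde traffic at the Golgi, read 1210.2, 639.9, 1380.4 and 1114 in oocytes and 4398, 3458.5, 3540.3 and 1751 in 1-cell embryos, a 3.03-fold rise (log2 change 1.56, SE 0.25, adjusted p = 0.000175). It then fell at the 2-cell stage, where the arrays overlapped with those of 1-cell embryos (adjusted p = 0.0152), and again at the 8-cell stage, to 628, 547, 651 and 637 (adjusted p = 8.58e-05). Rab27a, which docks secretory granules at the plasma membrane, read 439.7, 246.5, 211 and 242 in oocytes, 630.0, 469, 687 and 613 in 1-cell embryos and 289, 228, 164 and 279.9 in 2-cell embryos. All 4 of its 1-cell arrays lay above all arrays of the oocyte and the 2-cell stage (log2 change 1.06, SE 0.26, adjusted p = 0.0105, then log2 change −1.27, SE 0.26, adjusted p = 0.000685).

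Rab35, a GTPase of endocytic recycling and cytokinesis, had a mean of 433 ± 95.5 in oocytes (SD, n = 4 arrays, here and for the means that follow) and 811 ± 138 in 1-cell embryos (log2 change 0.88, SE 0.20, adjusted p = 0.00559). It stayed near that level in 2-cell embryos, at 793 ± 121. Rab23, a negative regulator of hedgehog signalling, read 495.5, 451, 503 and 639.6 in 1-cell embryos, 195, 153, 35.9 and 139 in 2-cell embryos and 24.1, 25.6, 23.7 and 35.2 in 8-cell embryos. The 3 sets of arrays did not overlap, and both falls were called (−2.0 and −1.52 on the log2 scale, adjusted p = 9.26e-05 and 0.00142). The 8-cell values of Rab23 lie near an intensity of 20, the 20th percentile of all values in the table, so the size of that fall depends on the background. Rab23 recovered in part in blastocysts, to 99.7 ± 52.9 (adjusted p = 0.0145).

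The 7 Rab genes that fell at the 8-cell stage were Rab6a, Rab7, Rab11b, Rab14, Rab23, Rab35 and Rab38. Rab14, which acts between Golgi and endosomes, read 2564, 1670.0, 1229 and 1166 in 2-cell embryos, 309, 355, 331 and 579 in 8-cell embryos and 1121, 742, 1312 and 475 in blastocysts. Its 2-cell and 8-cell arrays did not overlap (log2 change −1.99, SE 0.27, adjusted p = 2.44e-06), and the later rise was called although 1 blastocyst array lay within the 8-cell range (adjusted p = 0.00468). A second tested Rab14 probe set went from a mean of 132.0 in 2-cell embryos to 256.8 in 8-cell embryos and 262.0 in blastocysts, uncalled and opposite in sign to the 8-cell fall. Rab7, the late endosome GTPase, read 8639, 5861, 6046.5 and 6488 in 2-cell embryos and 3139, 3377, 3368 and 3898 in 8-cell embryos (log2 change −0.95, SE 0.18, adjusted p = 0.000199). Its blastocyst mean was 5037 ± 995, a rise at the edge of the threshold (adjusted p = 0.0497). Stx12, an endosomal syntaxin, was also low at the 8-cell stage and is described with the SNAREs.

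Other Rab genes rose at the 2-cell stage. Rab11b, the recycling endosome GTPase, read 175.5, 98.9, 209 and 283 in 1-cell embryos, 449, 440.4, 506 and 588 in 2-cell embryos and 256, 376, 148 and 209 in 8-cell embryos, so that every 2-cell array lay above its neighbours on both sides. It was 1 of 2 members with a called peak at that stage (adjusted p = 0.0476), a share of 1.8% beside 1.74% of all named genes. The call for Rab11b was lost under 5 of 10 other settings (a pseudocount of 5, no filter, no intensity trend, the replicate block and the mean of probe sets). It was also lost without any 1 of 14 arrays, which were all oocyte and 2-cell arrays, 1-cell replicates 1 and 3, 8-cell replicates 1, 3 and 4 and blastocyst replicate 2, with adjusted p up to 0.238. A second tested Rab11b probe set was not called, with means of 78.55 in 1-cell, 85.28 in 2-cell and 101.8 in 8-cell embryos. Rab39 went up at the 2-cell stage and down in blastocysts, with 25.6, 77.7, 37.3 and 78.1 in 1-cell embryos, 311, 389, 277 and 305 in 2-cell embryos, 495, 545, 478 and 498 in 8-cell embryos and 123, 80.9, 106 and 78.5 in blastocysts. Neither step overlapped (log2 change 2.26, SE 0.25, adjusted p = 1.89e-07, then log2 change −2.18, SE 0.25, adjusted p = 6.85e-07).

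Rab5b of the early endosome rose 2.06-fold at the 2-cell stage (adjusted p = 0.00944) and Rab43 of the Golgi rose 2.37-fold (adjusted p = 0.00187). Rab1a, which acts from endoplasmic reticulum to Golgi, was represented by a dim probe set, with 77.6, 31.4, 133 and 32.3 in 2-cell embryos, 208, 132, 200.3 and 129.8 in 8-cell embryos and 19.8, 46.3, 98.5 and 112 in blastocysts. Its fall in blastocysts (adjusted p = 0.0407) was lost under 7 of the alternatives run. Rab8a, an exocytosis GTPase, and Rab36 did not pass the F test, with adjusted p = 0.715 and 0.582. Their stage means lay between 264 and 329.6 for Rab8a, and between 418 and 504 for Rab36.

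The Rab11 effectors, which couple recycling endosomes to motors and to their target membranes, had 3 of 5 genes rise at the 2-cell stage, beside 13.4% of all named genes, and none fall, beside 13%. Rab11fip1 read 410.0, 459.7, 593 and 539 in oocytes, 88.3, 139, 45.3 and 95.2 in 1-cell embryos, 730.2, 725, 1102 and 845 in 2-cell embryos, 1810.1, 2033, 929 and 1517 in 8-cell embryos and 425, 424.5, 351 and 483 in blastocysts. Its 1-cell arrays lay below all others. It fell 5.44-fold (log2 change −2.27, SE 0.24, adjusted p = 5.95e-07), rose 9.24-fold (log2 change 3.01, SE 0.24, adjusted p = 8.35e-10) and fell again 3.74-fold in blastocysts (log2 change −1.80, SE 0.24, adjusted p = 6.27e-06). A second tested probe set named Rab11fip1, with means between 54.4 and 192.3, gave no call in any of these comparisons.

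Rab11fip5 read 634.5, 516, 583 and 678 in oocytes, 249.8, 316, 294 and 340.2 in 1-cell embryos, 1392, 1304, 1402 and 1455 in 2-cell embryos, 1379.6, 1689, 1209 and 1277 in 8-cell embryos and 2751.5, 2251, 1797 and 2076 in blastocysts. All its 1-cell arrays stood below the rest, and all its blastocyst arrays above the rest (log2 change 2.15, SE 0.15, adjusted p = 1.3e-10 for the 2-cell rise). Rab11fip1, Rab11fip5 and Snx6 were the 3 members with a called low point in 1-cell embryos, a share of 2.7% beside 1.75% of all named genes. No member had a called low point in 2-cell embryos by limma, beside 0.789% of all named genes. At an unadjusted limma p under 0.05, 5 of 111 members had one, beside 406 of 7475 named genes. The 1-cell low points had adjusted p = 8.77e-07, 0.000305 and 0.00153. That of Rab11fip1 had adjusted p = 0.103 with the mean of its probe sets. The promoter of Rab11fip5, printed above, had the most GC boxes of the 4 windows.

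Rab11fip3 rose 3.31-fold at the 2-cell stage, from 13.7, 89.2, 63.1 and 127 to 243, 197, 259 and 269.7 (adjusted p = 0.000326). Rab11fip4 read 46.8, 78.1, 175 and 244 in 8-cell embryos and 371, 355, 483 and 384 in blastocysts, which did not overlap (log2 change 1.62, SE 0.38, adjusted p = 0.00368). Another Rab11fip4 probe set, which is not of the x_at type, rose in the same comparison by 2.56 on the log2 scale, to a mean of 1195. It was also called higher at the 8-cell stage (log2 change 1.465), where the brightest was not. A further tested Rab11fip4 probe set was not called, with means of 116.7 in 8-cell embryos and 225.8 in blastocysts. The fifth effector gene, Rab11fip2, had no called change.

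Both subunits of Rab3GAP, a regulator that inactivates Rab3 and activates Rab18, fell at the 2-cell and again at the 8-cell stage. The catalytic subunit gene Rab3gap1 read 3549.9, 3384, 2979 and 2481 in oocytes, 3758.5, 5240.5, 4418.5 and 4392 in 1-cell embryos, 1338, 1083, 889 and 1042 in 2-cell embryos, 369, 411, 329 and 343.5 in 8-cell embryos and 514, 463, 444 and 345 in blastocysts. Rab3gap2 read 1118.5, 1573, 1315.5 and 1806 in 1-cell embryos, 844, 526.5, 344 and 542.5 in 2-cell embryos and 159, 236, 188 and 163 in 8-cell embryos. Neither gene's arrays overlapped between these 3 stages. Rab3gap1 fell 4.09-fold and then 3.00-fold (log2 change −2.02, SE 0.16, adjusted p = 9.83e-10, then log2 change −1.52, SE 0.16, adjusted p = 7.85e-08), and Rab3gap2 fell 2.58-fold and then 3.02-fold (log2 change −1.38, SE 0.21, adjusted p = 1.59e-05, then log2 change −1.45, SE 0.21, adjusted p = 6.01e-06). In blastocysts Rab3gap2 was 1.63-fold higher than in 8-cell embryos (adjusted p = 0.0334), and the change of Rab3gap1 was 0.26 (adjusted p = 0.344).

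Both Rab8 exchange factors in the set also changed at the last stages. Rab3ip, also called Rabin8, went from 295, 205, 185 and 242 in 8-cell embryos to 502, 720.4, 590.3 and 440.3 in blastocysts (log2 change 1.21, SE 0.20, adjusted p = 9.39e-05). Rab3il1 stood at 359, 284, 329 and 220.2 in 2-cell embryos, 595, 758, 624 and 857 in 8-cell embryos and 489.6, 465, 473 and 428 in blastocysts. Its 8-cell arrays lay above both neighbours (log2 change 1.20, SE 0.19, adjusted p = 2.63e-05, then log2 change −0.58, SE 0.19, adjusted p = 0.044).

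**Figure D3:**
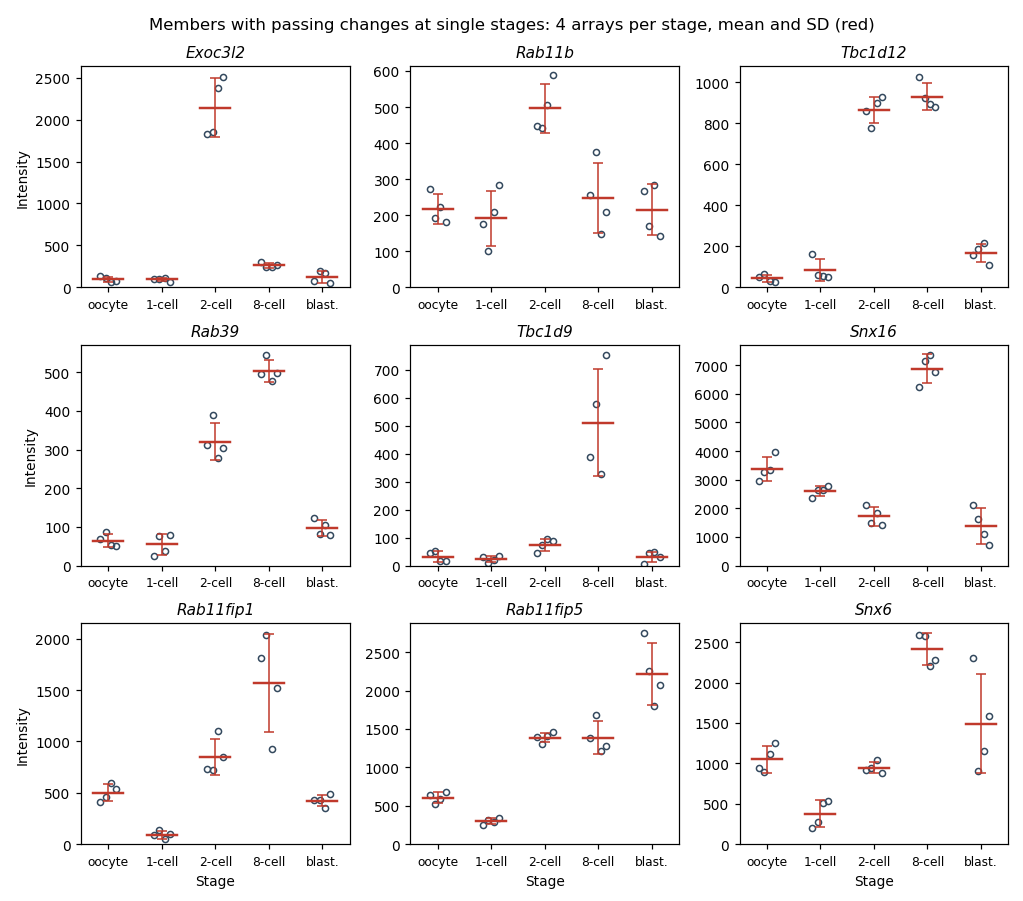
Intensity (linear axes, each starting at 0) by stage for 9 members, with open circles for the 4 arrays of a stage and red bars for the mean and SD. Exoc3l2 rises from a mean of 93.1 in 1-cell embryos to 2144 in 2-cell embryos and is down to 259.2 at the 8-cell stage, while Tbc1d9 and Snx16 are highest on the 8-cell arrays.

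TBC domain proteins counted 18 of 23 genes past the filter, with 4 rises (22.2%, beside 13.4% of all named genes) and 1 fall (5.56%, beside 13%) in 2-cell embryos. In 8-cell embryos 2 rose (11.1%, beside 15%) and none fell (beside 17.7%). Tbc1d12, which binds Rab11, read 162, 58.9, 54.9 and 50.2 in 1-cell embryos, 857, 778, 897 and 925 in 2-cell embryos, 1026, 921, 892 and 878 in 8-cell embryos and 157, 184, 214 and 109 in blastocysts. The 2-cell and 8-cell arrays lay above all arrays of the other stages (log2 change 3.24, SE 0.27, adjusted p = 1.04e-09, then log2 change −2.38, SE 0.27, adjusted p = 3.83e-07). The fold of means at the 2-cell stage was 10.6-fold, from a 1-cell level in which replicate 1, at 162.0, stood apart.

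Tbc1d9 was high at a single stage. It read 43.5, 53.7, 16.5 and 15.6 in oocytes, 30.5, 11, 19.0 and 34.6 in 1-cell embryos, 44.2, 73.5, 93.3 and 86.3 in 2-cell embryos, 388.5, 576, 328 and 752 in 8-cell embryos and 7.20, 43.2, 47.7 and 30.4 in blastocysts. The lowest 8-cell array was above every other array. The rise to the 8-cell stage was 6.88-fold (log2 change 2.46, SE 0.36, adjusted p = 8.33e-06) and the fall after it was 15.9-fold (log2 change −3.36, SE 0.36, adjusted p = 2.37e-07), the latter to values below the table's median. Tbc1d9 and Snx16 were the 2 members with a called 8-cell peak, 1.8% beside 1.53% of all named genes, with adjusted p = 0.000108 and 2.97e-06. After quantile normalization 5 members had such a peak, and the share of all named genes was not counted there.

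Tbc1d22b also rose and then fell, with means of 259 ± 40.9 in oocytes, 446 ± 41.3 in 1-cell embryos and 187 ± 40.3 in 2-cell embryos (adjusted p = 0.022 for the rise and 8.09e-05 for the fall). Its rise was lost under 4 of the alternatives run. Tbc1d30, a GTPase-activating protein for Rab8, had no call between adjacent stages but stood at 229, 322, 264 and 234 in oocytes against 86.2, 125, 46.6 and 29.0 in blastocysts (log2 change −1.73, SE 0.34, adjusted p = 0.000214). Tbc1d5, which acts on Rab7 with retromer, had stage means from 275 to 428 and did not pass the F test (adjusted p = 0.15).

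Of 5 Arf-like GTPases, 2 rose at the 2-cell stage, beside 13.4% of all named genes, and 1 in blastocysts, beside 11.1%. None of the 5 was called lower in a consecutive comparison. Arl1, which recruits golgins to the trans-Golgi, read 2644, 3175, 3329 and 2803 in 8-cell embryos and 7794, 7626, 7079 and 6276 in blastocysts, a 2.41-fold rise without overlap (log2 change 1.26, SE 0.18, adjusted p = 1.36e-05). This Arl1 probe set is of the s_at type. A second tested Arl1 probe set was not called and went the other way, from a mean of 154.6 in 8-cell embryos to 114.8 in blastocysts. Arl15 rose 2.36-fold at the 2-cell stage (adjusted p = 0.00109). Arl14 rose from 26.0, 2.30, 13.7 and 53.7 to 109.9, 178, 77.2 and 76.8 (adjusted p = 0.00631), with 1-cell values mostly near or below the table's 20th percentile.

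The exocyst tethers secretory vesicles at the plasma membrane, and 5 of its 7 subunit genes on the array passed the filter. Exoc3 read 823, 1063, 1209 and 1013 in oocytes, 151, 143, 212 and 223 in 1-cell embryos, 183, 94.3, 202 and 308 in 2-cell embryos, 500.2, 700.0, 640.0 and 859.6 in 8-cell embryos and 1004, 806, 1189 and 806 in blastocysts. It fell by the 1-cell stage and returned at the 8-cell stage, and the low stages did not overlap with the others (log2 change −2.38, SE 0.24, adjusted p = 3.47e-07, then log2 change 1.75, SE 0.24, adjusted p = 4.28e-06). Its blastocyst level differed from that of the oocyte by −0.11 on the log2 scale, SE 0.24, which did not pass the test (adjusted p = 0.759).

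Exoc6 fell and returned in the same way, with 328, 392.2, 354 and 403.5 in oocytes, 17.0, 60.1, 116 and 146 in 1-cell embryos, 59.7, 157, 22.2 and 18 in 2-cell embryos, 337, 263, 441 and 436 in 8-cell embryos and 1097.5, 840.4, 678 and 868 in blastocysts (log2 change −2.10, SE 0.40, adjusted p = 0.00111, then log2 change 2.47, SE 0.40, adjusted p = 3.5e-05). Single arrays of the 1-cell and 2-cell stages were as low as 17 and 18. In blastocysts it was above the oocyte (adjusted p = 0.023). A second tested Exoc6 probe set was not called between adjacent stages. Its means were 79.1 in oocytes, 78.7 in 1-cell, 26.3 in 2-cell and 50.2 in 8-cell embryos, so the course of Exoc6 rests on 1 probe set. Exoc5 and Exoc2 had no low point: Exoc5 rose from a mean of 269.6 ± 65.6 in 2-cell embryos to 616 ± 131.5 in 8-cell embryos (log2 change 1.14, SE 0.20, adjusted p = 0.000113), and Exoc2 from 144 ± 42.3 to 245 ± 54.2 (adjusted p = 0.0149). Exoc6b, the fifth, was not called in any comparison.

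Exoc3l2 had the largest rise of any member between adjacent stages. It read 129, 113, 64.8 and 78.7 in oocytes, 93.8, 100, 113 and 65.5 in 1-cell embryos, 1827, 1858, 2378 and 2513 in 2-cell embryos, 295, 241, 241 and 259.9 in 8-cell embryos and 74.8, 194, 165 and 50.3 in blastocysts. Every 2-cell array exceeded every other array. The rise was 23.0-fold (log2 change 4.26, SE 0.28, adjusted p = 2.21e-11) and the fall to the 8-cell stage 8.27-fold (log2 change −2.94, SE 0.28, adjusted p = 9.11e-09), with adjusted p = 7.6e-08 for the peak. A further fall, from the 8-cell stage to the blastocyst, was also called (log2 change −1.13, SE 0.28, adjusted p = 0.00617). A second tested Exoc3l2 probe set, of the x_at type, had means between 135.6 and 242.2 and was not called. So the 2-cell peak of Exoc3l2, like the course of Rab11fip1, rests on 1 probe set.

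TRAPP complexes activate Rab1 and Rab11 in the secretory pathway, and 7 of 8 genes passed the filter. At the 1-cell stage 3 fell (42.9%, beside 6.27% of all named genes) and none rose (beside 3.46%), and at the 8-cell stage 3 rose (42.9%, beside 15%) and 1 fell (14.3%, beside 17.7%). Trappc11 read 408, 324, 425 and 451 in oocytes, 137, 165, 160.4 and 146 in 1-cell embryos, 123, 94.1, 102 and 102 in 2-cell embryos, 393, 549, 500.2 and 494 in 8-cell embryos and 689, 603, 808 and 613.5 in blastocysts, without overlap at the fall or at the return (log2 change −1.29, SE 0.17, adjusted p = 1.02e-05, then log2 change 2.00, SE 0.17, adjusted p = 1.01e-09). The core subunit gene Trappc4 also fell and returned, from a mean of 867 ± 128 to 515 ± 51.2 and, after 626 ± 13.7, to 1784 ± 99.0 in 8-cell embryos (adjusted p = 0.00302 and 3.86e-08).

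Trappc8 fell 1.72-fold at the 1-cell stage (adjusted p = 0.00235) and rose in blastocysts, 1.70-fold (adjusted p = 0.00229). Trappc6b went the other way at the 8-cell stage, with 3139, 1923, 1875 and 2645 in 2-cell embryos, 155, 572, 804 and 631 in 8-cell embryos and 1623.5, 1395, 1582 and 1218 in blastocysts (log2 change −2.28, SE 0.34, adjusted p = 1.06e-05). Its other tested probe set, of the s_at type, shared the rise in blastocysts but was not called at the 8-cell stage, with a log2 change of −0.19. The brightest Trappc12 probe set did not pass the F test (adjusted p = 0.772), with stage means from 353 to 431. Both other tested Trappc12 probe sets were called higher at the 8-cell stage, from a mean of 166.3 to 340.7 and from 36.6 to 196.2, so the probe sets of Trappc12 differ.

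The COG complex tethers vesicles within the Golgi. Cog3 had a mean of 1439 ± 310.3 in 1-cell embryos and 464 ± 103 in 2-cell embryos (log2 change −1.59, SE 0.17, adjusted p = 1.39e-07). Cog7 and Cog5 climbed instead. Cog7 read 36.0, 39.9, 67.2 and 98.0 in oocytes, 115, 210.3, 182 and 279 in 8-cell embryos and 331, 233, 407 and 464 in blastocysts (log2 change 2.26, SE 0.34, adjusted p = 6.58e-06 against the oocyte), and Cog5 rose from 7.90, 31.7, 16.3 and 66.1 to 151, 126, 131 and 202 (log2 change 1.89, SE 0.37, adjusted p = 0.000217). Cog8 had stage means between 636 and 862 and did not pass the F test (adjusted p = 0.132).

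Sorting nexins bind phosphoinositides on endosomes through a PX domain, and 14 of 16 passed the filter. At the 8-cell stage 8 rose (57.1%, beside 15% of all named genes) and 3 fell (21.4%, beside 17.7%), and the family's median log2 change was 0.77, beside 0.05 over all named genes. Snx16 read 2964, 3280.3, 3339.5 and 3962 in oocytes, 2378, 2654, 2654 and 2775 in 1-cell embryos, 2124, 1483.5, 1846.5 and 1412 in 2-cell embryos, 6237, 7162.5, 7354 and 6771.5 in 8-cell embryos and 2124, 1619, 1103 and 705 in blastocysts. The 8-cell arrays lay above all others (log2 change 2.01, SE 0.23, adjusted p = 1.8e-07, then log2 change −2.40, SE 0.23, adjusted p = 3.42e-08). A second Snx16 probe set had the same calls, with log2 changes of 2.42 and −2.72.

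Snx6, a partner of retromer, read 943, 889, 1111 and 1249 in oocytes, 199, 268, 503 and 529 in 1-cell embryos, 916, 948, 1040.4 and 885 in 2-cell embryos, 2595, 2572, 2205 and 2284 in 8-cell embryos and 2308, 905, 1158 and 1588 in blastocysts. Its 1-cell arrays were the lowest (log2 change −1.53, SE 0.26, adjusted p = 0.000254), and the blastocyst arrays were widely spread. Snx24 rose at the 8-cell stage from 42.2, 45.2, 45.5 and 34.6 to 284, 322, 148 and 107, without overlap (log2 change 1.81, SE 0.34, adjusted p = 0.000229), and read 548, 572, 269 and 282 in blastocysts. Against oocyte values of 19.2, 37.4, 26.8 and 21.6, which lie near the table's 20th percentile, the blastocyst change was 3.18 (adjusted p = 4.71e-08). Snx30 and Snx27, the latter a cargo adaptor for retromer, rose 2.48-fold and 1.79-fold at the 8-cell stage (adjusted p = 6.07e-05 and 0.0121).

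Snx7 and Snx25 were low in 8-cell embryos, a stage at which low points were not tested. Snx7 read 172, 166, 126 and 154 in 2-cell embryos, 18.5, 95.1, 84.4 and 19.0 in 8-cell embryos and 773, 677, 870.3 and 894 in blastocysts, a 14.8-fold rise in the last step (log2 change 3.65, SE 0.34, adjusted p = 2.27e-08). Snx25 read 323, 396, 353 and 387 in 2-cell embryos, 74.3, 220.3, 83.2 and 127 in 8-cell embryos and 486, 375, 779.5 and 642 in blastocysts (log2 change 2.07, SE 0.26, adjusted p = 2.46e-06). Snx13, which like Snx25 has an RGS domain, fell at both the 2-cell and the 8-cell stage and rose in blastocysts, with means of 1498 ± 157, 726 ± 116, 341 ± 137 and 748 ± 119 from the 1-cell stage on (adjusted p = 0.00077, 0.000264 and 0.000368). A second tested Snx13 probe set shared the called rise in blastocysts. It went the other way at the 8-cell stage, uncalled, from a mean of 137.9 to 208.9. A further tested Snx13 probe set was called lower at the 8-cell stage (log2 change −0.99) but not called in blastocysts. Neither was called at the 2-cell stage.

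**Figure D4:**
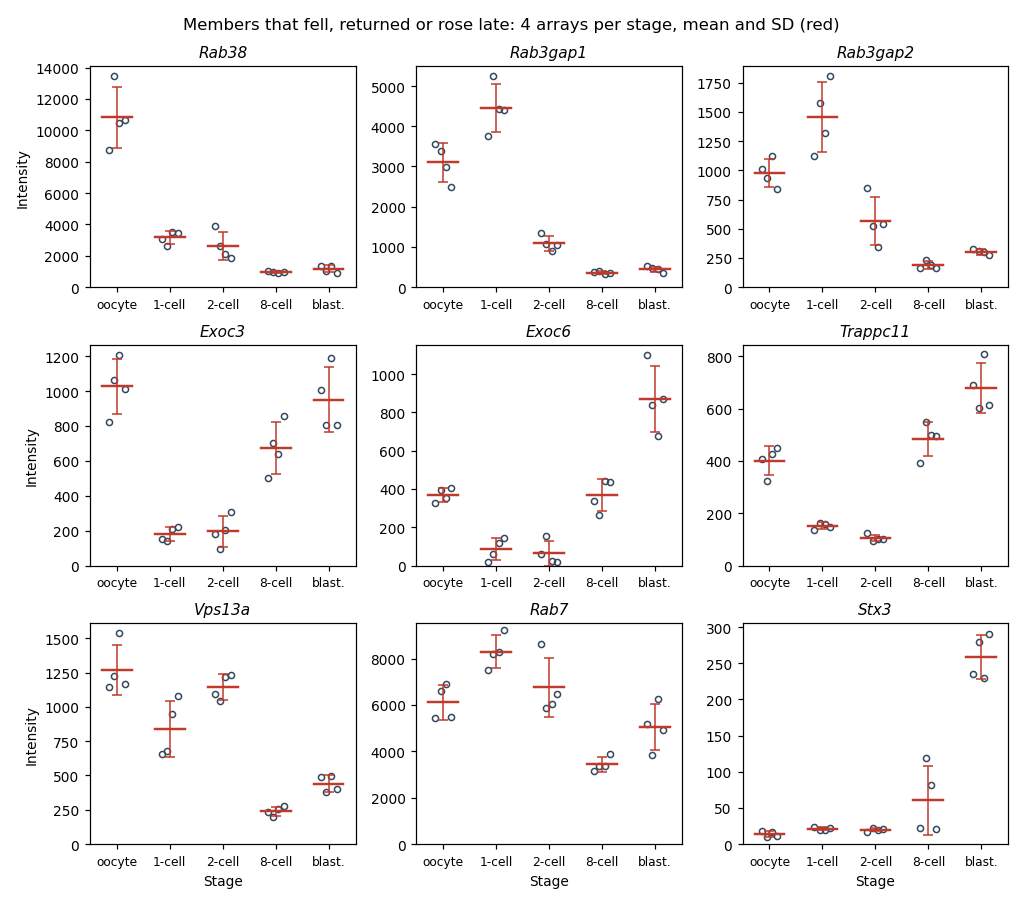
Intensity (linear axes, each starting at 0) by stage for 9 members, with open circles for the 4 arrays of a stage and red bars for the mean and SD. Rab38 falls from a mean of 10837 in oocytes to 3169 in 1-cell embryos, both Rab3GAP genes fall at the 2-cell and 8-cell stages, and Exoc3, Exoc6 and Trappc11 are low in 1-cell and 2-cell embryos and higher from the 8-cell stage on.

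The Vps genes, 17 of 20 past the filter, belong to several complexes. At the 8-cell stage 3 rose (17.6%, beside 15% of all named genes) and 2 fell (11.8%, beside 17.7%), and in blastocysts 4 rose (23.5%, beside 11.1%) and 1 fell (5.88%, beside 7.77%). The Vps13 genes encode bridge-like lipid transfer proteins. Vps13a read 1143, 1223.5, 1542 and 1167 in oocytes, 658, 676, 947 and 1078 in 1-cell embryos, 1092, 1042, 1217.5 and 1236 in 2-cell embryos, 234, 199, 253 and 275 in 8-cell embryos and 489, 378, 496 and 399 in blastocysts. The 8-cell arrays were below all others (log2 change −2.17, SE 0.17, adjusted p = 3.91e-10). Of its 4 other tested probe sets, all had a lower mean at the 8-cell stage than at the 2-cell stage, and 2 of these falls were called.

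Vps13b fell to 193, 190.0, 196 and 143 in 8-cell embryos, from 581, 572, 540.3 and 455, and read 519.7, 420.2, 348 and 329 in blastocysts (log2 change −1.48, SE 0.17, adjusted p = 2.11e-07, then log2 change 1.07, SE 0.17, adjusted p = 5.83e-05). Its 2 other tested probe sets, with means of 59.2 to 113.8, were not called. Vps13d changed by −0.21 at that stage (adjusted p = 0.427), having fallen at the 1-cell stage from a mean of 1366 ± 331 to 709 ± 119 (adjusted p = 0.0015). A second tested Vps13d probe set had no call, with means of 189.8 in oocytes, 201.7 in 1-cell and 142.2 in 2-cell embryos.

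Vps26c, a subunit of the endosomal retriever complex, read 771, 650.1, 716 and 514 in 1-cell embryos, 271, 293, 195 and 195 in 2-cell embryos, 465.5, 369, 371 and 316 in 8-cell embryos and 1620.1, 1603, 1473 and 1122 in blastocysts. It fell without overlap at the 2-cell stage (log2 change −1.41, SE 0.18, adjusted p = 1.25e-06) and its blastocyst arrays were above all others (log2 change 1.88, SE 0.18, adjusted p = 3.31e-08). Vps36 of ESCRT-II rose 3.17-fold in blastocysts, from a mean of 209 ± 46.8 to 662 ± 108 (adjusted p = 5.32e-06). At the 8-cell stage Vps33a of the HOPS and CORVET tethers rose 2.13-fold (adjusted p = 0.00787) and Vps51 of GARP and EARP rose 1.66-fold (adjusted p = 0.0475).

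Of the syntaxins, the SNAREs of the set, 4 of 5 passed the filter. By their brightest probe sets none was called at the 1-cell or 2-cell stage, 1 fell at the 8-cell stage (beside 17.7% of all named genes) and 3 rose in blastocysts (beside 11.1%). A second tested Stx11 probe set was called higher at the 2-cell stage, from a mean of 121.0 to 255.4, and lower at the 8-cell stage, at 85.2. Stx3, the syntaxin of apical membranes in epithelia, read 18.2, 10, 17.3 and 11.2 in oocytes, 17.1, 22.0, 19.2 and 20.4 in 2-cell embryos, 21.8, 118, 81.8 and 21.2 in 8-cell embryos and 236, 279, 229.5 and 291 in blastocysts. The oocyte and 2-cell arrays lie at about the table's 20th percentile, 2 of the 8-cell arrays stood well above it, and all blastocyst arrays were higher than the rest (log2 change 1.98, SE 0.35, adjusted p = 0.000184). Epcam, an epithelial marker, had a mean of 893.4 in 8-cell embryos and 2764 in blastocysts, and its part in the result for Stx3 was not tested.

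Stx16 of the trans-Golgi read 59.6, 218, 231 and 95.6 in 8-cell embryos and 412, 633, 441 and 759 in blastocysts (log2 change 1.88, SE 0.40, adjusted p = 0.00148). Stx12, the endosomal syntaxin, read 507, 416, 436 and 455 in 2-cell embryos, 155, 151, 154.5 and 123 in 8-cell embryos and 291, 219.8, 291 and 249.6 in blastocysts. The 3 sets of arrays did not overlap (log2 change −1.51, SE 0.17, adjusted p = 1.02e-07, then log2 change 0.77, SE 0.17, adjusted p = 0.00183).

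Of the opposite-strand RNAs, Rab10os rose at the 8-cell stage from a mean of 204 ± 24.4 to 414 ± 109 (log2 change 0.92, SE 0.23, adjusted p = 0.00322) and Rab11fip4os1 fell there by 1.67 on the log2 scale. Probe sets of an opposite-strand RNA and of its partner may read overlapping sequence, and no Rab10 probe set was among the members.

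Related members were compared directly. There were 11 pairs that share a family name and number and were both past the filter, and the change of the first gene minus that of the second was tested in 4 consecutive comparisons, 44 tests in all. The test was a two-sided exact permutation test over 4 arrays a stage, for which 0.0286 is the smallest p possible. Of the tests, 16 reached it. Pairs of unrelated genes were not tested, so this count has no background share beside it. The pairs among Vps13a, Vps13b and Vps13d share genes, so the tests are not independent. The p-values are given unadjusted for the 44 tests. The adjusted threshold used elsewhere was not applied, so no difference between pairs is a called one.

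Tbc1d9 and its relative Tbc1d9b differed at the 8-cell stage by 2.35 (SE 0.31) and in blastocysts by −3.48 (SE 0.38) on the log2 scale (exact permutation p = 0.0286 for each). The Tbc1d9b probe set used ranged from a mean of 239 to 379. A second tested Tbc1d9b probe set ranged from 158.2 to 449.1 and was called higher at the 8-cell stage (log2 change 0.96). Exoc6 and Exoc6b differed by −2.25 (SE 0.60) at the 1-cell stage and 2.18 (SE 0.48) at the 8-cell stage (exact permutation p = 0.0286 for each), with Exoc6b between 183 and 291. Rab39 and Rab39b differed by 2.07 (SE 0.43) at the 2-cell stage and Rab27a and Rab27b by −1.38 (SE 0.30) (exact permutation p = 0.0286 for each).

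Rab6a and Rab6b differed at the 8-cell stage by −2.22 (SE 0.38), where Rab6a fell and Rab6b changed by 0.77 (exact permutation p = 0.0286 for the difference). Vps26b and Vps26c differed by 1.75 (SE 0.24) at the 2-cell stage and by −2.05 (SE 0.17) in blastocysts (exact permutation p = 0.0286 for each). For Vps13a and Vps13d the 8-cell difference was −1.96 (SE 0.14), and for Vps13b and Vps13d −1.26 (SE 0.12) (exact permutation p = 0.0286 for each), while Vps13a and Vps13b differed there by −0.69 (SE 0.21) (exact permutation p = 0.0571). No comparison reached the smallest p for Vps37a and Vps37d, whose differences lay between −1.0 and 0.58, or for Tbc1d10a and Tbc1d10c, whose differences lay between −0.36 and 1.05.

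**Figure D5:**
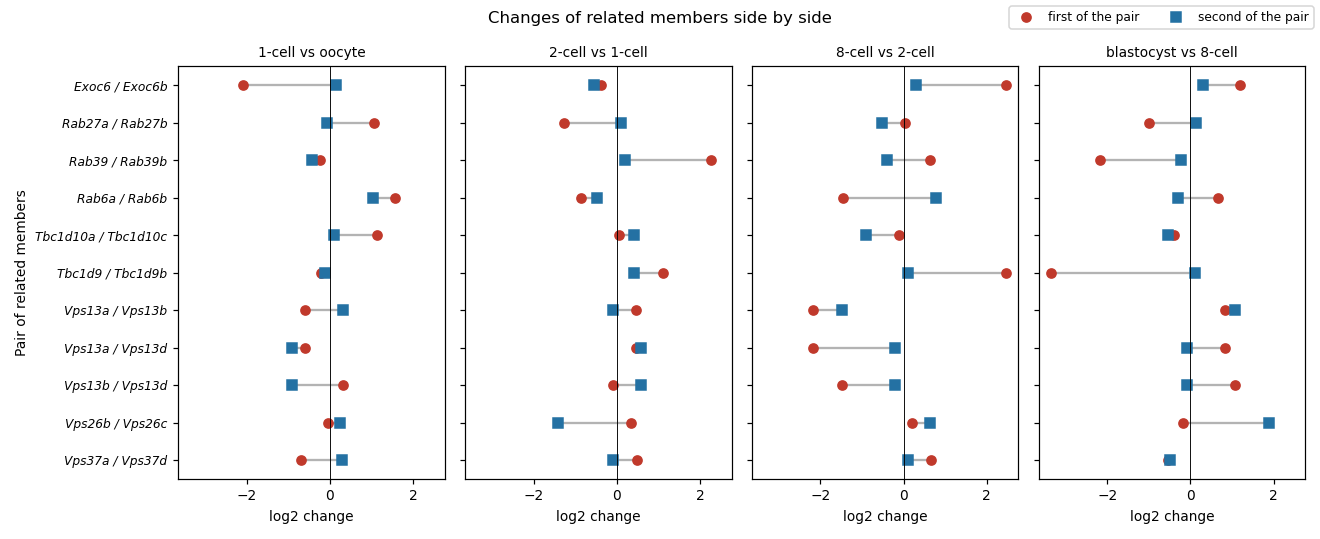
Each row is a pair of related members and each panel a stage comparison, with log2 change on the horizontal axis, a red circle for the first gene, a blue square for the second and a grey line for their difference. The widest gap is that of Tbc1d9 and Tbc1d9b in blastocysts, −3.48 log2 units.

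From oocyte to blastocyst, 34 members (30.6%) were higher, beside 21.9% of all named genes, and 17 (15.3%) were lower, beside 21.2%. Without oocyte replicate 3 the falls numbered 11. The median log2 change was 0.17 for members and 0.04 for all named genes. The largest rises without overlap were Snx24, Stx3, Cog7, Exoc5, Rab11fip4 and Cog5, and the largest falls were Rab38, Rab3gap1, Tbc1d30, Rab3gap2, Rab23 and Vps13a. Exoc5 went from 220.2, 170.2, 207 and 161 in oocytes to 959.6, 1033.5, 734 and 742 in blastocysts (log2 change 2.08, SE 0.20, adjusted p = 9.24e-09).

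Other genes of the pathway were counted from a list of 171 symbols for coats, adaptors, Arf proteins, Rab helpers, SNARE factors, ESCRT and golgins, of which 79 were on the array and 66 passed the filter. Of these 66, 48 passed the F test (72.7%, beside 59.5% of all named genes). At the 1-cell stage 4 rose (6.06%, beside 3.46%) and 2 fell (3.03%, beside 6.27%), and at the 2-cell stage 5 rose (7.58%, beside 13.4%) and 10 fell (15.2%, beside 13%). In 8-cell embryos 11 rose (16.7%, beside 15%) and 15 fell (22.7%, beside 17.7%), and in blastocysts 12 rose (18.2%, beside 11.1%) and 4 fell (6.06%, beside 7.77%). The median changes were 0.03, 0.00, 0.04 and 0.21. By subgroup at the 8-cell stage, the rises and falls were 3 and 0 of 5 COPII genes, 5 and 3 of 16 Rab helpers, 1 and 0 of 4 ESCRT genes and 0 and 0 of 4 COPI genes. They were 1 and 4 of 14 clathrin and adaptor genes, 1 and 3 of 10 other SNARE factors, 0 and 2 of 5 Arf genes and 0 and 3 of 8 golgins and tethers.

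Mon1a, part of the exchange factor for Rab7, fell and rose again, with 1203, 1104, 1196 and 1233 in oocytes, 377, 463, 439 and 513 in 1-cell embryos and 1060.5, 1068, 1605 and 1437 in 2-cell embryos (log2 change −1.37, SE 0.16, adjusted p = 2.36e-06, then log2 change 1.47, SE 0.16, adjusted p = 1.39e-07). Nsf, the ATPase that takes spent SNARE complexes apart, read 432, 583, 397 and 312 in oocytes, 888, 1004.5, 1013 and 905 in 1-cell embryos and 192, 74.9, 166 and 109 in 2-cell embryos (log2 change 1.14, SE 0.23, adjusted p = 0.00224, then log2 change −2.71, SE 0.23, adjusted p = 2.76e-09). Every 1-cell Nsf array lay above every other. Sec22c, a SNARE-like protein of the early secretory pathway, rose 2.02-fold in 1-cell embryos (adjusted p = 0.00209), and Scfd2 fell 2.14-fold (adjusted p = 0.00135).

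Chm, the escort protein that presents Rabs for lipid attachment, went from 33.8, 77.7, 62.2 and 56.5 in 2-cell embryos to 329, 474, 491 and 429 in 8-cell embryos (log2 change 2.56, SE 0.25, adjusted p = 1.33e-08). Bicd2, a dynein adaptor for Rab6 vesicles, and Arfgef1, an exchange factor for Arf proteins at the trans-Golgi, fell 5.30-fold and 4.11-fold at that stage (log2 change −2.33, SE 0.17, adjusted p = 1.07e-10 for Bicd2). Rabep2, a Rab effector, rose 3.46-fold at the 2-cell stage (adjusted p = 3.43e-09). In blastocysts Chmp2b of ESCRT-III rose 12.2-fold, from 143, 184, 178 and 77.9 to 2206, 1748, 2173.5 and 988 (log2 change 3.43, SE 0.28, adjusted p = 3.23e-09), and the COPI subunit gene Copg1 rose 2.46-fold (adjusted p = 3.06e-06).

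Of the members past the filter, 44 (39.6%, beside 48.4% of all named genes) had no called change between adjacent stages, among them Arl2, Rab42, Tbc1d4, Vps18, Vps35l and Vps54. The 23 members below the filter were 6 Rab genes, 5 TBC domain genes, Exoc1, Exoc3l and Exoc8, Vps11, Vps13c and Vps50, Snx21 and Snx32, Cog4, Stx6, Trappc6a and Tbc1d22bos. No other probe set of theirs passed.

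For 35 members another probe set was tested, and 56 called changes of the brightest could be compared with it. The other probe set had the same call for 13, no call for 43 and the opposite call for none, and its change had the same sign for 35. The 21 of opposite sign belong to Arl1, Exoc3l2, Rab11b, Rab11fip1, Rab14, Snx13, Trappc13, Vps13a, Vps13b and Vps13d. In 15 comparisons, of 11 genes, another probe set was called where the brightest was not. Of the tested members, 15 were represented by a probe set of the s_at or x_at type.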

How the data were processed

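The samples were 20 MOE430B arrays at 5 stages, 4 per stage, grouped by their titles. The authors deposited an intensity on a linear scale for each of 22575 probe sets, 64 of them controls. Per the file headers and the labels no summarization or scaling method is stated, and neither is known from other sources here. The table holds no detection calls. Probe sets were named through the platform annotation, updated against the mouse gene table of GRCm38.p6: 14661 carry 1 symbol (14486 found in the table), 245 several and 7605 none.

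Intensities were used as deposited, without further normalization, as log2(value + 20). Probe sets at or above the median of 82.6 on at least 4 arrays, 15234 in all, were fitted in limma 3.58.1 (R 4.3.3) with stage means over all 20 arrays, eBayes with an intensity trend and 15 residual degrees of freedom. Benjamini-Hochberg adjustment covered all tested probe sets within each comparison, and the threshold was 0.05. A peak or low point at a stage took the larger of both one-sided p-values. The script was tested on simulated data. Pairs of related genes were compared with exact permutation tests. Replicate numbers were checked for pairing: deviations of same-numbered arrays from their stage means correlated between −0.0616 and 0.0635 over 40 pairs. Those of differently numbered arrays correlated between −0.0748 and 0.0961 over 120 pairs. No pairing by number was seen over all tested probe sets, and a pairing that touches only some of them was not tested. Alternatives were other pseudocounts, filters, quantile normalization, no intensity trend, array weights, the replicate block, probe set choices and leaving out each array.

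Members and lists were chosen with earlier results of these data known. The members named are, for each consecutive comparison, up to 6 rises and 6 falls by size among called changes whose arrays do not overlap. For blastocyst against oocyte they are up to 6 rises and 6 falls by size among called changes, with no condition on overlap. Added to these are all called peaks and low points, the member with the highest mean in each family, Rab11fip1 and Exoc3l2, the 4 steadiest members, pairs of related genes, and up to 3 called genes of the pathway list per comparison. Other names complete a count or a family and were chosen after their values were seen.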

Additional observations from a re-analysis of the deposited data

Results flagged for a closer look

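In 17 of 295 groups of 4 arrays examined, over 59 named members, 1 array stood apart from the other 3, by a gap above Dixon's 95% critical value for 4 values. That is 5.76% of the groups, and chance alone flags about 1 in 20.

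In 8-cell embryos, 7 such arrays were seen. Replicate 2 read 183.5 for Cog5 (others 89.6 to 105.5), and replicate 3 read 1646.8 for Trappc8 (others 1447.9 to 1481.0). Replicate 4 read 578.6 for Rab14 (others 308.9 to 354.7), 35.2 for Rab23 (others 23.7 to 25.6), 122.6 for Stx12 (others 151.1 to 155.3), 143.2 for Vps13b (others 190.0 to 196.2) and 179.6 for Vps26b (others 278.7 to 292.0).

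In 1-cell embryos, replicate 1 read 605.7 for Rab35 (others 856.9 to 901.1), 162.0 for Tbc1d12 (others 50.2 to 58.9) and 316.5 for Trappc12 (others 448.9 to 469.6). Replicate 3 read 456.3 for Vps13b (others 605.1 to 615.9), and replicate 4 read 82.9 for Rab11fip4 (others 211.3 to 222.3).

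Oocyte replicate 1 read 439.7 for Rab27a (others 211.4 to 246.5). Oocyte replicate 3 read 1247.4 for Rab14 (others 837.5 to 889.8) and 630.5 for Vps26c (others 513.2 to 530.5). In 2-cell embryos, replicate 1 read 168.0 for Rab10os (others 213.4 to 218.5) and replicate 4 read 303.7 for Rab36 (others 447.3 to 461.2).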

How the results depend on the processing

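The 62 changes between stages chosen by size or as steps of a peak or low point gave 1849 values under the alternatives, of which 1835 kept their direction and side of the threshold, 14 lost the call and none reversed. The lost calls were Rab1a in blastocysts (7 times), Tbc1d22b at the 1-cell stage (4 times), and Cog5 in blastocysts against oocytes, Exoc6 at the 1-cell stage and Rab11b at the 8-cell stage (1 each). The following counts of members moved by over 1.5 times. All named genes were not counted under these settings, and the cause was not tested. A 75th percentile filter gave 7 rises at the 1-cell stage, and array weights gave 16 falls at the 2-cell stage. The 2-cell peak count was 1 with a pseudocount of 5, with no filter, without the intensity trend and with the replicate block, and 4 after quantile normalization, which also gave 5 for the 8-cell peak and 5 for the 1-cell low point. Without x_at and s_at probe sets the 1-cell low point count was 1, and the 2-cell low point count was 1 there and with the mean of probe sets. Leaving out each array gave 74 to 79 members changed in the F test, 3 to 6 rises and 11 to 13 falls at the 1-cell stage, 15 to 19 and 9 to 14 at the 2-cell stage, 20 to 26 and 17 to 20 at the 8-cell stage, 19 to 24 and 8 to 14 in blastocysts, and 31 to 35 and 11 to 19 from oocyte to blastocyst. Peaks numbered 1 to 2 at the 2-cell and 2 to 3 at the 8-cell stage, and low points 3 at the 1-cell stage in each case and 0 to 1 at the 2-cell stage, with 1 without 2-cell replicate 4. With the replicate number as a block, 77 members passed the F test, with 5 rises and 12 falls, 18 and 10, 22 and 18, and 20 and 13 in consecutive comparisons. It lost no call among the 62 changes. Over all 124 called changes of members in these comparisons 8 were lost (Rab3ip and Tbc1d23 at the 2-cell stage, Snx8, Tbc1d23 and Vps51 at the 8-cell stage, Exoc6, Rab3il1 and Rab7 in blastocysts), and so was the 2-cell peak of Rab11b (adjusted p = 0.0717), while 4 of 20 arrays correlated best with their own number. Intensities below the table's 20th percentile have no detection calls, so folds from them are uncertain.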
